A study of Mus musculus with 31 samples.

Results

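Klrd1, Ncr1, Klrb1c, Klre1, Klrk1, Klrc1 and Klrc2 encode receptors of the surface of natural killer (NK) cells. They were taken by gene symbol from the gene count tables of all 31 libraries of a mouse study of peripheral T cell lymphoma, where they are 7 of 48211 symbols that both kinds of table list. All 7 were found in every library, and all 7 passed the filter on low counts in every comparison. They were followed in CD4+ T cells and in whole spleen, in cells before lymphoma and in tumors, against normal cells.

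NK cells are lymphocytes that kill target cells without rearranged antigen receptors, and they weigh signals from activating and inhibitory receptors of the surface. The Klr genes encode C-type lectin-like receptors of the NK gene complex. Klrd1 (CD94) pairs with Klrc1 (NKG2A), which inhibits, or with Klrc2 (NKG2C), which activates, and both pairs bind the non-classical MHC molecule Qa-1, encoded by H2-T23. Klrk1 (NKG2D) is an activating receptor for stress-induced ligands, and Klrb1c (NK1.1) is the activating receptor by which NK cells of C57BL/6 mice are usually recognised. Klre1 encodes a lectin-like receptor that pairs with Klri1 or Klri2, and Ncr1 (NKp46) is an activating receptor of the immunoglobulin family. None of these genes is strictly confined to NK cells: several are also known from activated CD8+ T cells, NKT cells and some activated CD4+ T cells.

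The mice were of strain C57B/6. By genotype, the fusion mice carry a Vav1-Myo1f allele as fl/wt together with CD4-Cre or with CD4-CreERT2, a Cre that acts when tamoxifen is present. All pre-lymphoma libraries are of CD4+ T cells. There were 3 fusion/fusion libraries, whose label names the CreERT2 fusion genotype on both sides of a slash, 3 control/fusion libraries, whose label joins CD4-Cre-ERT2(WT) to that genotype by a slash, and 2 normal control libraries labelled CD4-Cre-ERT2(WT). The labels do not explain the slash. The CD4-Cre set held CD4+ T cells of 4 tumor and 3 normal mice and whole spleens of 3 tumor and 3 normal mice, the tumors labelled CD4-CreVav1Myo1f fl/wt and the normal ones CD4-Cre(WT). The CD4-CreERT2 set held CD4+ T cells of 2 tumor and 2 normal mice and whole spleens of 3 tumor and 3 normal mice, labelled CD4-CreERT2Vav1Myo1f fl/wt and CD4-CreERT2 (WT). As labelled, the controls thus differ from the fusion mice in the fusion allele, and Cre is driven in the Cd4 lineage. Whether NK cells carry the fusion was not tested. Whether the pre-lymphoma libraries come from separate mice is not labelled, and p-values then cover only how these libraries vary, which may be technical. A tumor and normal libraries both bear the number VM645 and were counted as different mice.

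Between 12632196 and 37568512 reads per library were counted in genes. A pair of tumor libraries stood apart. The CD4+ library of tumor VM98 had counts in 34546 genes, the most of all, and 23.67% of its singly aligned reads lay in no gene. The spleen of tumor VM294 had counts in 18368 genes, the fewest. Myo1f, a gene of the fusion, stood at 142 to 180 CPM (counts scaled to library size) in fusion/fusion, 150 to 172 CPM in control/fusion and 70.6 to 82.9 CPM in control libraries. All levels are CPM scaled by TMM within a set, and levels of different sets are not compared. CD4+ libraries were not free of other cells. The sum over 5 dendritic cell markers was 15.3 to 92.0 CPM in tumor and 242 to 406 CPM in normal CD4+ libraries of the CD4-Cre set. In whole tissue, and in such CD4+ samples, fewer cells of a type and less RNA per cell cannot be told apart.

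6 of the genes lie within 900.5 kb of chromosome 6 (GRCm38), in the order Klrb1c, Klre1, Klrd1, Klrk1, Klrc2 and Klrc1, and the last 4 span 87.2 kb. Klrd1 is at chr6:129591782-129598775 on the plus strand, Klrk1 at chr6:129610323-129623864, Klrc2 at chr6:129647496-129660689 and Klrc1 at chr6:129666015-129678973, all 3 on the minus strand. Klrb1c is at chr6:128778485-128789215 on the minus strand and Klre1 at chr6:129577905-129585827 on the plus strand. Ncr1 is at chr7:4337724-4345164 on the plus strand. 413 exonic bases of Klrb1c, 13.95% of its exon length, overlap Gm44511, and with no strand given for the reads the 2 genes cannot be told apart there.

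Because the members moved apart in the pre-lymphoma cells, with Ncr1 and Klrb1c higher and Klrk1, Klrc1 and Klrc2 not called, the 250 bases before the starts of 4 of them are shown, 5′ to 3′ on the gene's strand, from the RefSeq table (GRCm38.p6). Capitals mark TGTGGT, the motif of RUNX factors, or its reverse complement. Of the windows held for Ncr1, the first listed is shown. The starts are those of the RefSeq table. For Klrb1c that start lies inside the extent of the gene given above, so its window lies within the annotated gene, and the windows of Klrc2 and Klre1, which are not printed, lie partly or wholly within theirs.
Ncr1, chr7:4337465-4337714, plus strand: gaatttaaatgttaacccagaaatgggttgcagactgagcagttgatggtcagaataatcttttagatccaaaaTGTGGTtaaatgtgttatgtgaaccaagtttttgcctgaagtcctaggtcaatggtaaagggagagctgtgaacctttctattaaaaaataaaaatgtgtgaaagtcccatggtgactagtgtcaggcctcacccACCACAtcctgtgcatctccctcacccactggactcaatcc
Klrb1c, chr6:128788642-128788891, minus strand: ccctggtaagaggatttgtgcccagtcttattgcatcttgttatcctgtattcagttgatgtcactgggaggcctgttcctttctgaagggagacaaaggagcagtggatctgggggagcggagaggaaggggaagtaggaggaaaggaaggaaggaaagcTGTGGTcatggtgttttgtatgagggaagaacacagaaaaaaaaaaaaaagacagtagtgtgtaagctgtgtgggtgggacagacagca
Klrk1, chr6:129623865-129624114, minus strand: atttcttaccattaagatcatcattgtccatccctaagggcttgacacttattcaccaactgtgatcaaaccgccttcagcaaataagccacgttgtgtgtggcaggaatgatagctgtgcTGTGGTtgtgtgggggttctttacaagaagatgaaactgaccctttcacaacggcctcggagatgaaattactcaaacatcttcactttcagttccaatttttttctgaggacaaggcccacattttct
Klrc1, chr6:129678974-129679223, minus strand: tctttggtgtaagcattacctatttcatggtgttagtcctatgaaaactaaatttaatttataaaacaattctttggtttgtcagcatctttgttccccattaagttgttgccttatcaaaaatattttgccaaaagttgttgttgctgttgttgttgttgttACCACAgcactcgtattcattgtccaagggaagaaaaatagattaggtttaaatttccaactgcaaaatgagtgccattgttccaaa

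The table holds windows for 6 of the 7 genes (9 windows in all) and none for Klrd1. All 6 have the RUNX motif in at least 1 window: Ncr1 at 176 and 41 bases before the start, Klrb1c at 89, Klrk1 at 129, Klrc1 at 87, Klrc2 at 36 and 9, and Klre1 at 229 bases. Of all 27025 genes with windows of this length, 15.9% have it on either strand. The T-box core GGTGTG, searched because Eomes and Tbx21 are T-box factors of NK cells, was in 0 of the 6 and in 18.3% of all genes. A T-box core followed by GT contains the RUNX motif, so the searches overlap. The motif stands in the windows of genes that rose and of genes that did not. These matches describe the letters of the windows and show no binding, and Klrc1 and Klrc2 are related copies, so they are not independent.

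Klrc1 and Klrc2 also share coding sequence, which bears on how their reads can be split. Their longest common run is 103 bases, from base 633 of the 735 coding bases of Klrc1 to its stop codon (GENCODE vM21 transcripts), and it is shown to make plain where a read cannot tell them apart.
Klrc1 and Klrc2, shared coding run: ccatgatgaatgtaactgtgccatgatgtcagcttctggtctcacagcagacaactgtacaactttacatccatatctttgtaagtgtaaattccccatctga
Of all 50-base windows of the Klrc1 coding sequence, 15.01% occur in Klrc2, and 26.65% of those of Klrc2 occur in Klrc3. For Klrb1c, 9.78% occur in Klrb1a. Reads that lie within such shared runs cannot be assigned to 1 of the genes.

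Per kilobase of exon, Klrd1 was the most abundant of the 7 genes in both normal tissues. In normal CD4+ cells of the CD4-Cre set Klrd1 averaged 24.1 ± 4.0, Klrc1 13.8 ± 4.2, Klrk1 10.9 ± 2.2, Klrb1c 9.72 ± 1.20, Ncr1 2.61 ± 1.94, Klrc2 1.68 ± 0.43 and Klre1 1.63 ± 0.31 CPM per kb (SD, n = 3). Klrd1 and Klrc1, and Klrb1c and Ncr1, differed by more than their SDs, and the other neighbours in this order did not. In normal spleens of the same set Klrd1 averaged 42.0 ± 11.7 CPM per kb (SD, n = 3). It was followed by Klrc1 at 29.3 ± 15.7, Ncr1 at 27.4 ± 9.7, Klrk1 at 18.4 ± 6.9, Klrb1c at 10.9 ± 3.7, Klre1 at 7.34 ± 3.28 and Klrc2 at 3.26 ± 1.65 CPM per kb. Neighbours in that order differed by no more than the larger of their SDs, apart from Klrk1 and Klrb1c, and Klre1 and Klrc2. Ncr1 stood lower in the order in CD4+ cells than in spleen.

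In the CD4+ cells before lymphoma, Ncr1 rose with both fusion labels, Klrb1c rose and Klrd1 fell in fusion/fusion cells, and Klrk1, Klrc1, Klrc2 and Klre1 were not called. In fusion/fusion against control 2 of the 7 genes rose and 1 fell, where 23.8% of all genes tested rose and 22.0% fell (45.7% in either direction). In control/fusion against control 1 rose and 0 fell, where 11.6% and 8.7% of all genes did (20.3% in either direction). In fusion/fusion against control/fusion 1 rose and 0 fell, where 9.59% and 9.3% of all genes did (18.9% in either direction). DESeq2 also called 0 lower in both. At an unadjusted p under 0.05 there were 3, 2 and 3 of the 7 in these comparisons, against 53.2%, 35.3% and 33.0% of all genes. As a group the receptors were thus called about as often as other genes.

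Ncr1, the NKp46 gene, separated all 3 groups. It stood at 5.75, 4.8 and 5.57 CPM in fusion/fusion, 2.92, 2.33 and 2.45 CPM in control/fusion and 1.41 and 1.29 CPM in control libraries, from 31 to 161 counts per library. No library of one group reached the range of another. Against control, Ncr1 rose in fusion/fusion cells by 1.99 ± 0.21 (log2 fold change ± SE, adjusted p = 6.0e-05, edgeR's quasi-likelihood F test with Benjamini-Hochberg adjustment over all 16257 genes, called at an adjusted p under 0.05). It was also higher in fusion/fusion than in control/fusion cells, by 1.07 ± 0.18 (adjusted p = 0.00357 with edgeR). In control/fusion against control cells it rose by 0.92 ± 0.22 (adjusted p = 0.0152 with edgeR), a call that rests on both controls: the adjusted p was 0.052 without control 1 and 0.108 without control 2. The fusion/fusion and control/fusion groups share the 2 control libraries. All 3 groups were also apart in the share of singly aligned reads that lay in no gene. It was 10.9 and 12.8% for control, 9.06, 8.74 and 9.82% for control/fusion, and 8.46, 7.28 and 8.33% for fusion/fusion. Both controls had at least 24513103 reads counted in genes. Control/fusion ran from 13235378 to 29257595 such reads, fusion/fusion from 12632196 to 27371032. The part of these differences in the receptor values was not tested.

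Klrb1c, the NK1.1 gene, was at 15.5, 14.2 and 13.2 CPM in fusion/fusion, 16.5, 8.18 and 13.9 CPM in control/fusion and 6.97 and 9.01 CPM in control libraries. Fusion/fusion libraries lay above both controls, while the control/fusion range crossed the control range. The rise in fusion/fusion against control was 0.84 ± 0.24 (log2, adjusted p = 0.0172 with edgeR), and it was lost without control 1 (0.66, adjusted p = 0.121) or without fusion/fusion 1 (0.77, adjusted p = 0.0508). In control/fusion against control cells the difference was 0.69 ± 0.24 (adjusted p = 0.0716 with edgeR).

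Klrd1, the CD94 gene, went the other way. It was at 12.5, 12.5 and 11.4 CPM in fusion/fusion, 15.8, 15.8 and 13.8 CPM in control/fusion and 15.5 and 21.0 CPM in control libraries. The fusion/fusion libraries lay below all 5 others, and control/fusion overlapped control. Klrd1 fell in fusion/fusion against control by 0.59 on the log2 scale (SE 0.14, adjusted p = 0.00641 with edgeR), and without control 2 the difference was -0.36 (adjusted p = 0.0853).

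The partners of Klrd1 did not pass. Klrc1 was at 5.82, 6.19 and 5.96 CPM in fusion/fusion and 3.19 and 4.66 CPM in control libraries, without overlap, with a log2 fold change of 0.61 ± 0.28 (adjusted p = 0.1 with edgeR). In all, 3 of the 7 ranges lay above control and 1 below, against 33.1% and 32.8% of all genes. Klrc2, Klrk1 and Klre1 overlapped between these groups, with log2 fold changes of 0.25 ± 0.32, 0.03 ± 0.24 and 0.14 ± 0.35. For Klrk1 the 95% interval of that difference ran from -0.44 to 0.50. Klre1 was at 2.36, 4.24 and 2.51 CPM in fusion/fusion and 1.72, 1.20 and 2.03 CPM in control/fusion libraries, without overlap, and its difference of 0.82 ± 0.33 was not called (adjusted p = 0.112 with edgeR).

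**Figure D1:**
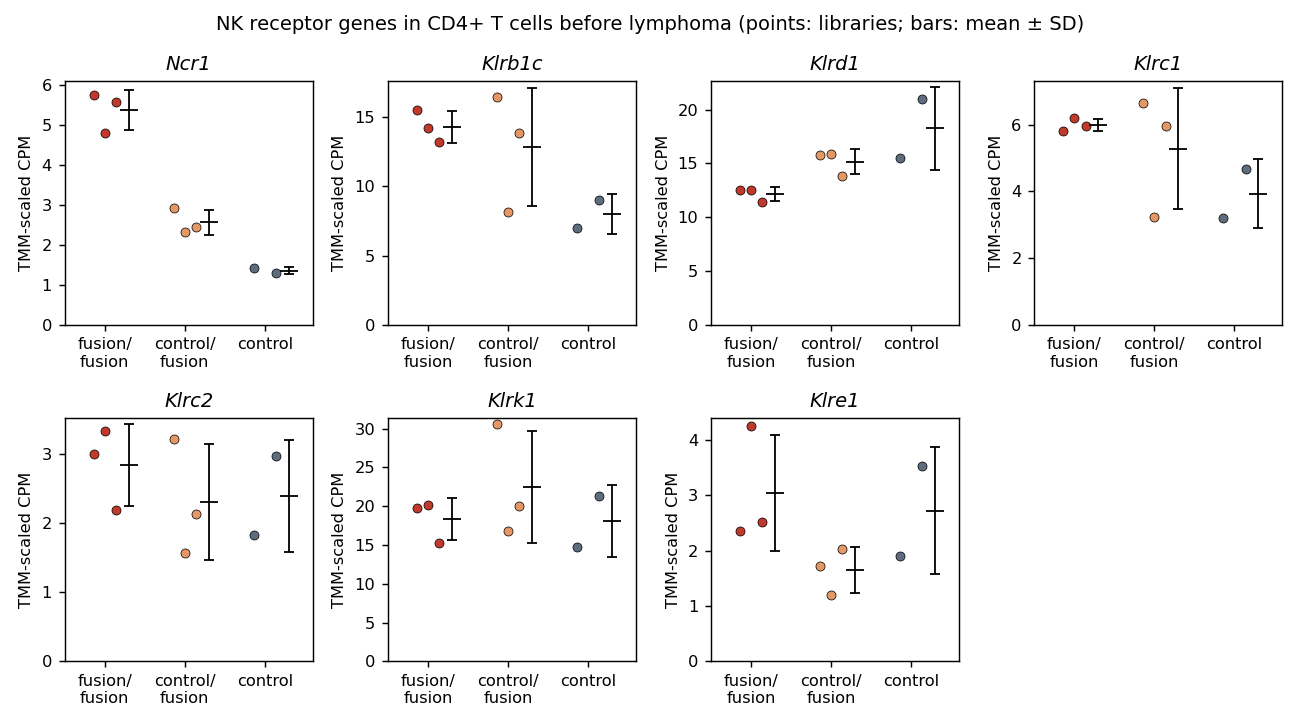
TMM-scaled CPM (y axes, linear from 0) of each of the 7 genes in fusion/fusion (n = 3), control/fusion (n = 3) and control (n = 2) CD4+ libraries, with points for libraries and bars for mean ± SD. Ncr1 falls into 3 groups that do not overlap, Klrd1 is lowest in fusion/fusion, and Klrk1 overlaps throughout.

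Ncr1 was also set against Klrk1 within each library. There were 29.0, 23.9 and 36.4 Ncr1 counts per 100 Klrk1 counts in fusion/fusion, 9.56, 13.8 and 12.2 in control/fusion and 9.52 and 6.06 in control libraries. The fusion/fusion libraries lay above all others, while the lowest control/fusion library (9.56) was close to the higher control (9.52). In normal CD4+ cells of both tumor sets this ratio ran from 2.06 to 10.1, and in the spleens of those sets, tumor and normal, from 16.2 to 55.1. In CD4+ tumors it ran from 1.95 to 193. VM98 at 17.8 and VM645 at 28.6, from 2 Ncr1 and 7 Klrk1 counts, also lay in the range of the spleens. Ratios of different sets are given as descriptions.

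**Figure D2:**
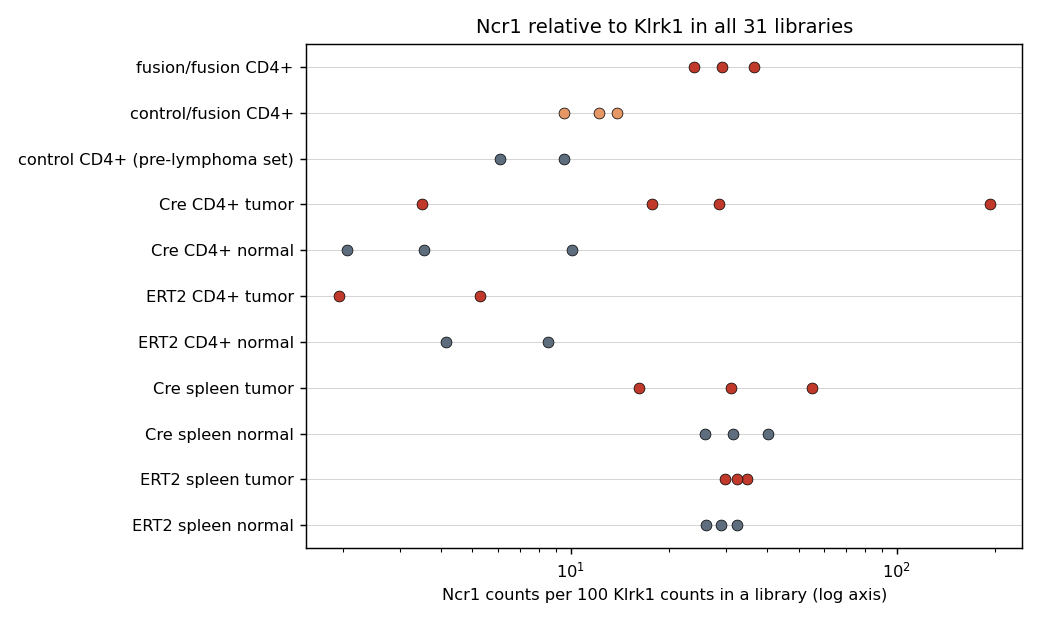
Ncr1 counts per 100 Klrk1 counts (x axis, log scale) in each of the 31 libraries, 1 point per library, by group (y axis). Fusion/fusion libraries sit at 23.9 to 36.4, within the range of the spleens, as do the CD4+ tumors VM98 and VM645. The CD4+ tumor VM388 sits highest at 193.

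Other NK cell genes were set beside the receptors before lymphoma. Of 9 transcription factors known from NK cells, 7 rose and none fell in fusion/fusion against control, with Nfil3, which NK development needs, at 1.78 ± 0.20 and Id2 at 1.29 ± 0.14 (log2). Of 12 other NK surface genes tested, 8 rose and 1 fell, with Klrg1 at 2.40 ± 0.18 and the integrin Itga2 (CD49b) at 1.44 ± 0.12. The cytotoxic list had 7 of 13 genes higher and 1 lower. Of all genes tested 23.8% rose and 22.0% fell in this comparison. Granzyme B (Gzmb) was higher by 3.09 ± 0.17 and perforin (Prf1) fell by 2.03 on the log2 scale (SE 0.11). Median log2 fold changes were 0.85, 0.51 and 0.62 for these lists, against -0.01 over all genes. In control/fusion against control 4 of the 9 factors, 8 of the 12 surface genes and 2 of the 13 cytotoxic genes were higher and 0, 1 and 1 lower, where 11.6% of all genes were higher and 8.7% lower. These lists hold many genes that activated T cells use too.

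Of the other Nkrp1 receptors 2 of 3 tested rose, Klrb1f by 1.45 ± 0.25 and Klrb1b by 0.97 ± 0.27. Among adaptors of NK receptors Tyrobp (DAP12) was higher by 0.72 ± 0.17 and Cd247 (CD3 zeta) fell by 1.03 on the log2 scale (SE 0.08), with 1 of 6 tested called in each direction. edgeR called 0 of 5 Ly49 receptors tested, and 0 had an unadjusted p under 0.05. The sum over 9 Ly49 genes was 3.69 to 6.05 CPM in fusion/fusion and 3.07 to 5.33 CPM in control libraries. Eomes, a factor of NK cells, was at 24.1 to 31.8 CPM in fusion/fusion and 9.99 and 17.0 CPM in control libraries.

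Markers of other cells were measured beside these changes. Cd8a and Cd8b1 were not called in any of the 3 comparisons, with a sum of 32.2 to 36.3 CPM in fusion/fusion and 34.5 to 38.6 CPM in control libraries. Trdc, of gamma-delta T cells, fell by 0.91 on the log2 scale in fusion/fusion cells (SE 0.21). All 5 erythroid markers and all 4 plasma cell markers rose in fusion/fusion against control, and 4 of 5 dendritic cell markers. In the same comparison 3 of 4 stroma markers were higher and 1 lower (median 1.74), and 3 of 6 B cell markers and 1 of 3 markers of NKT and innate-like T cells were lower. In control/fusion against control all 5 erythroid and all 5 dendritic cell markers were higher, 3 of 6 B cell markers were lower and 0 of 4 plasma cell markers were called. Their part in the changes of Ncr1 and Klrb1c was not tested.

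In whole spleens of the CD4-Cre set, all 7 point estimates were lower in tumors, and edgeR called 0 of the 7, as it did 0 of 17050 genes (0.0%). Klrd1 was at 7.39, 7.54 and 23.1 CPM in the spleens of tumor mice VM388, VM58 and VM98, against 68.7, 54.2 and 38.7 CPM in normal spleens. Klrk1 was at 16.0, 21.7 and 59.6 CPM in tumor spleens and at 188, 119 and 90.8 CPM in normal spleens. For both genes every tumor spleen lay below every normal one, and VM98 lay closest to normal. Ncr1 was at 4.95, 3.53 and 32.8 CPM in tumor spleens and 59.0, 30.7 and 36.6 CPM in normal spleens, where VM98 reached into the normal range. Klrc1 overlapped in the same way, with 7.88, 3.65 and 40.6 CPM in tumor spleens and 90.5, 55.5 and 28.3 CPM in normal spleens.

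The log2 fold changes ran from -1.63 ± 0.83 for Ncr1 to -2.25 ± 0.91 for Klrc2, with adjusted p from 0.218 to 0.427 (edgeR). At an unadjusted p under 0.05 there were 5 of the 7, against 13.9% of all genes. The ranges of 5 of 7 genes lay below normal without overlap, against 11.3% of all genes, and DESeq2 called 3 of the 7 lower (Klrd1, Klre1 and Klrk1). Without the spleen of VM98 edgeR called all 7 lower, from -2.63 ± 0.46 for Klre1 to -4.00 ± 0.54 for Klrc2, with adjusted p from 0.0165 to 0.0432, where 2.27% of all genes were called lower. That fit leaves 2 tumor spleens. Each library was left out in turn, and no other omission of 1 library changed the number called. VM98 was the tumor spleen closest to normal in these genes, so the gain in calls follows from leaving it out.

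Markers of other cells were measured beside them. The sum of Cd8a and Cd8b1 was 33.5, 38.3 and 129 CPM in the tumor spleens VM388, VM58 and VM98 and 140 to 293 CPM in normal spleens. The sum over 9 Ly49 receptors was 6.05, 2.14 and 26.8 CPM in these tumor spleens and 51.7 to 130 CPM in normal spleens. VM98 was again closest to normal in both. The sum over 10 macrophage and monocyte markers had the same order, with 4378, 3976 and 22278 CPM in these tumor spleens and 13092 to 24215 CPM in normal spleens. VM98 was instead farthest from normal in the other 2 sums. The 6 B cell markers summed to 4489, 5118 and 1514 CPM in tumor spleens and 6020 to 6967 CPM in normal spleens, and the 3 markers of NKT and innate-like T cells to 273, 352 and 127 CPM in tumor spleens and 263 to 375 CPM in normal spleens. The part of these cells in the result was not tested. Il2rb, a cytokine receptor chain that T cells also use, had no such pattern, with 108, 253 and 234 CPM in tumor spleens and 134 to 245 CPM in normal spleens.

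In CD4+ cells of the CD4-Cre set the 4 tumors differed widely from each other, and no receptor was called. Klrd1 was at 1.95, 3.74, 0.55 and 17.7 CPM in tumors VM388, VM58, VM645 and VM98, against 35.9, 31.1 and 25.6 CPM in normal cells. Klrk1 was at 3.21, 11.5, 0.24 and 54.8 CPM in these tumors and 96.4, 66.3 and 72.0 CPM in normal cells. All 4 tumors lay below the normal range in both genes. Klrb1c was at 22.7, 0.37, 2.47 and 18.7 CPM in these tumors and 32.1, 25.1 and 29.1 CPM in normal cells, so VM388 and VM98 came near the normal range and the other 2 did not. Ncr1 was at 6.19, 0.40, 0.07 and 9.75 CPM in tumors and 3.43, 1.37 and 7.25 CPM in normal cells, with tumors on both sides.

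edgeR called 0 of the 7 genes, where 0.157% of all genes were called (0.0168% higher and 0.14% lower). DESeq2 called 0, with no adjusted p for Klrk1 and Klrc2. 6 of 7 point estimates were lower, from -0.70 ± 1.22 for Klre1 to -2.77 ± 1.19 for Klrc1, and 2 of the 7 passed at an unadjusted p under 0.05, against 15.1% of all genes. 4 of 7 ranges lay below normal without overlap, against 9.08% of all genes. Without VM98, the library with the most genes detected, edgeR called Klrd1 (-3.93 ± 0.64, adjusted p = 0.033) and Klrc2 (-4.09 ± 0.58, adjusted p = 0.023) lower, where 1.89% of all genes were. VM98 was also the highest of these tumors in both genes. In the fit without VM98, Ncr1 was at -0.91 ± 1.34. Sums over markers of other cells were lower in these tumors too. They were 8.68 to 24.7 CPM in tumors and 36.3 to 40.9 CPM in normal cells for Cd8a and Cd8b1, and 468 to 3861 CPM in tumors and 4734 to 6903 CPM in normal cells for macrophages and monocytes, of whose 10 markers 2 were called lower. The markers of NKT and innate-like T cells summed to 307 to 452 CPM in tumors and 515 to 548 CPM in normal cells, and the ranges of the B cell sum overlapped (54.4 to 761 CPM in tumors, 695 to 1081 CPM in normal cells). The part of these cells in the receptor values was not tested.

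**Figure D3:**
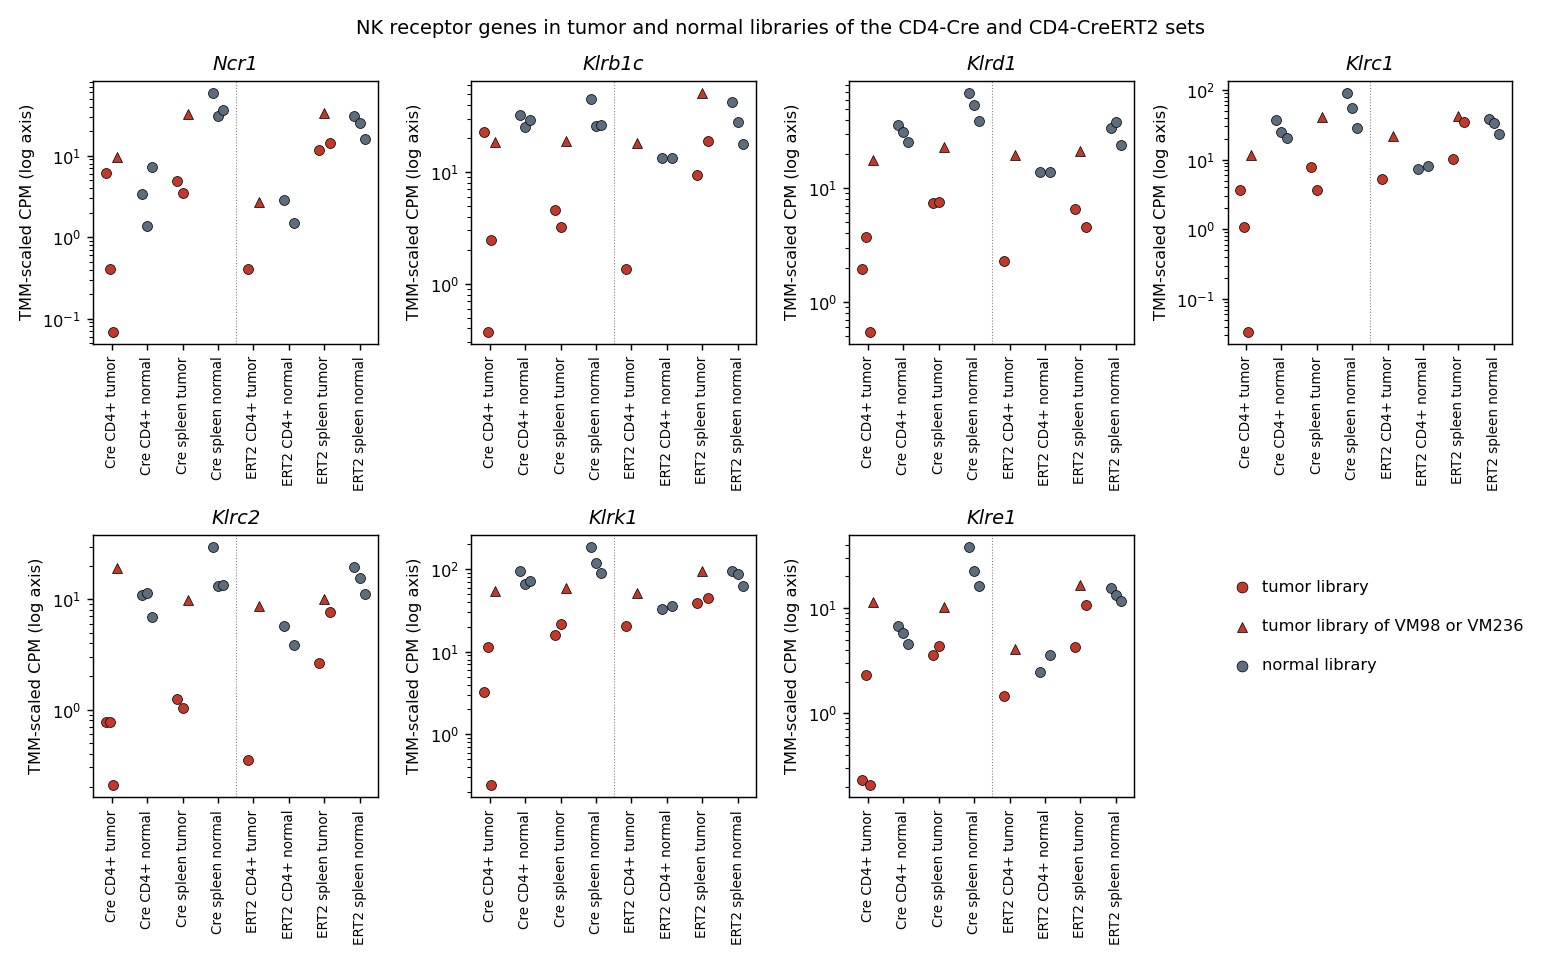
TMM-scaled CPM (y axes, log scale) of each gene in tumor (red) and normal (grey) libraries of the CD4-Cre set (left of the dotted line) and the CD4-CreERT2 set (right of it), 1 point per library, with triangles for tumor mice VM98 and VM236. The triangles are often the highest tumor points of a panel.

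The make-up of the receptor counts showed how the CD4+ tumors differed. Shares are given of the summed counts of the 7 genes in a library, with exact Clopper-Pearson 95% intervals that cover counting error only. In tumor VM388 Klrb1c took 58.6% (56.0 to 61.3%) and Ncr1 16.0% (14.1 to 18.1%), against 14.5 to 17.5% and 0.823 to 4.36% in normal CD4+ cells. This library had 8 of 9 Ly49 genes at 0, VM58 and VM645 had 7 each and VM98 had 0, against at most 1 in normal CD4+ cells. Eomes stood at 0.37 CPM in VM388, against 4.52 to 22.8 CPM in normal CD4+ cells. Gzmb was at 1164 CPM and Itga2 at 19.7 CPM in it, against 25.8 to 33.0 CPM and 7.37 to 9.69 CPM in normal cells.

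In tumor VM58 Klrk1 took 56.9% (53.2 to 60.6%), against 39.9 to 43.4% in normal CD4+ cells, and Klrb1c 1.85% (0.991 to 3.15%). In tumor VM645 the 7 genes summed to 110 counts, against 5662 to 9526 counts in normal cells, and Klrb1c held 65.5% (55.8 to 74.3%) of them. Klrc1 had 1 count there. In tumor VM98 Klrc2 took 13.5% (12.3 to 14.6%), against 4.17 to 6.85% in normal cells, and it had 164 Klrc2 counts per 100 Klrc1 counts, where normal CD4+ libraries of that set had 30.0 to 45.6. In the CD4-CreERT2 set Klrk1 took 65.2% (62.4 to 67.9%) in tumor VM231, against 42.0 to 44.8% in normal CD4+ cells, and Klrb1c 4.24% (3.16 to 5.55%). Klrb1c thus led in VM388 and VM645. By counts, Klrk1 led in all other CD4+ tumors, also in VM98 (38.2%) and VM236 (40.6%), as it did in the normal CD4+ cells of both tumor sets. The shares of Klrk1 in VM58 and VM231 lay above those of normal cells. Shares are not scaled to exon length, which is 7183 bases for Klrk1 and 1281 for Klrd1. Per kilobase, Klrd1 stood above Klrk1 in VM58 (2.92 and 1.60 CPM per kb), VM98 (13.8 and 7.63) and VM236 (15.3 and 7.10). In VM231 it stood below (1.78 and 2.88 CPM per kb). With 1 library each these are descriptions of single tumors.

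**Figure D4:**
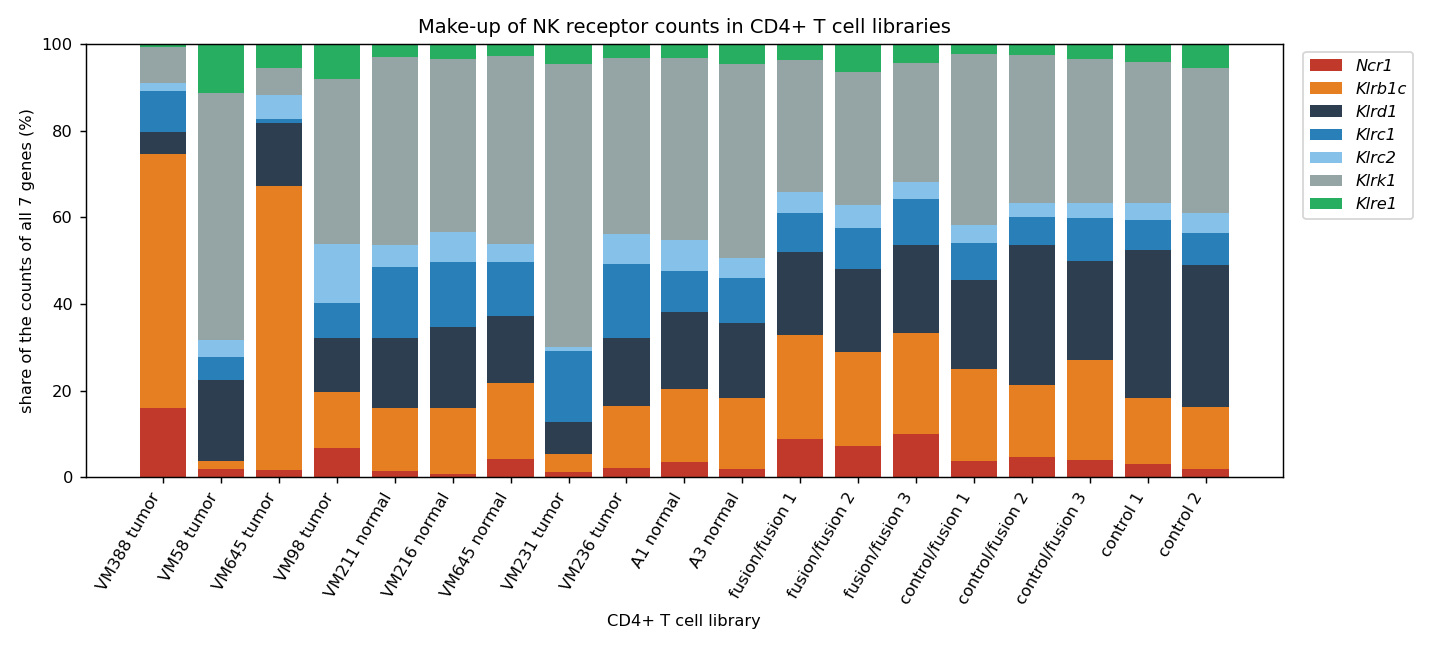
Share of the summed counts of the 7 genes (y axis, percent) taken by each gene in every CD4+ T cell library (x axis), from the tumor and normal libraries of both tumor sets and the pre-lymphoma set. Klrb1c (orange) dominates tumors VM388 and VM645. Klrk1 (grey) has its largest shares in VM58 and VM231, and also leads in VM98, VM236 and the normal libraries of both tumor sets. Counts are not scaled to exon length.

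In the CD4-CreERT2 set the 2 CD4+ tumors lay on either side of the normal cells in every receptor gene but Ncr1. Klrd1 was at 2.29 CPM in tumor VM231 and 19.6 CPM in tumor VM236, against 14.01 and 13.9 CPM in normal CD4+ cells. Klrb1c was at 1.34 and 18.2 CPM in these tumors and 13.4 and 13.2 CPM in normal cells, and Klrc2 at 0.35 and 8.64 CPM in tumors and 5.78 and 3.82 CPM in normal cells. Klrk1 spanned less, with 20.7 and 51.0 CPM in tumors and 33.2 and 35.9 CPM in normal cells. Klrc1 was at 5.19 and 21.5 CPM in tumors and 7.34 and 8.20 CPM in normal cells. Klre1 was at 1.45 and 4.055 CPM in tumors and 2.49 and 3.61 CPM in normal cells. VM231 was below and VM236 above the normal cells in each of these genes. Ncr1 was at 0.40 and 2.69 CPM in tumors and 2.82 and 1.49 CPM in normal cells, so that VM236 lay within the normal range. edgeR called 0 of the 7 (0.0% of all genes), and DESeq2 called 0. At an unadjusted p under 0.05 there were 0, against 5.17% of all genes. When each library was left out in turn, the fit without VM236 left 1 tumor, whose spread is assumed to be that of the other libraries. The log2 fold changes in that fit were -3.29 for Klrb1c, -2.60 for Klrd1, -3.76 for Klrc2 and -0.73 for Klrk1. VM236 was the higher tumor in all 7 genes, so lower values follow from leaving it out. The sum of Cd8a and Cd8b1 was 8.58 CPM in VM231 and 32.6 CPM in VM236, against 32.3 to 42.5 CPM in normal cells. B cell markers summed to 190 and 1201 CPM in these tumors and 2445 to 2588 CPM in normal cells, and macrophage and monocyte markers to 3480 and 4792 CPM in tumors and 544 to 1081 CPM in normal cells. VM236 was the tumor nearer to normal in the CD8 and B cell sums, and both tumors were above normal in the macrophage sum. The part of these cells in the receptor values was not tested here either.

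In the spleens of the same set all 7 point estimates were lower in tumors and edgeR called none of them. Klrd1 was at 6.55, 21.3 and 4.54 CPM in the spleens of tumor mice VM231, VM236 and VM294, against 34.1, 37.9 and 23.8 CPM in normal spleens. It and Klrc2 lay below normal without overlap, against 19.3% of all genes. Klrd1 had a log2 fold change of -1.56 ± 0.61 (unadjusted p = 0.0364, adjusted p = 0.223 with edgeR). Klrc2 was at 2.66, 10.2 and 7.75 CPM in tumor spleens and 19.7, 15.8 and 11.1 CPM in normal spleens, with -1.15 ± 0.57 (adjusted p = 0.298 with edgeR). Ncr1, at 11.6, 33.3 and 14.4 CPM in tumor spleens and 30.99, 25.1 and 16.3 CPM in normal spleens, overlapped, as did Klrb1c, Klre1, Klrk1 and Klrc1, with log2 fold changes from -0.43 ± 0.43 for Klrk1 to -0.08 ± 0.55 for Klrc1.

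edgeR called 0 of the 7 there (0.0% of all genes), 1 had an unadjusted p under 0.05, where 20.1% of all genes had, and DESeq2 called 0. Without the spleen of VM236 Klrd1 was called lower (-2.41 ± 0.42, adjusted p = 0.0368), where 1.11% of all genes were. VM236 had the highest Klrd1 of the tumor spleens. Without VM294, the spleen with the fewest genes detected, Klrd1 was at -1.21 ± 0.53 and none was called. In VM294, Klrc1 was at 34.9 CPM and Klrk1 at 44.5 CPM while Eomes was at 0.87, Tbx21 at 0.13, Prf1 at 1.34 and Il2rb at 1.6 CPM, against 16.6 to 21.3, 41.7 to 56.6, 39.3 to 52.5 and 207 to 242 CPM in normal spleens. The TMM factor of VM294 was 0.602, the lowest of all libraries, which raises its scaled values. Without TMM scaling Klrc1 was at 21.0 CPM in it and 26.0 to 39.8 CPM in normal spleens. Klrk1 was then at 26.8 CPM, against 68.9 to 101 CPM. With the scaling, Trdc stood at 105 CPM in that library and at 10.4 to 14.5 CPM in normal spleens. Other cell markers differed between tumor and normal spleens of this set. Neutrophil markers summed to 2031 to 72904 CPM in tumor and 268 to 669 CPM in normal spleens, macrophage and monocyte markers to 5592 to 15699 and 1478 to 1811 CPM. B cell markers summed to 802 to 5295 CPM in tumor and 7997 to 8368 CPM in normal spleens. The sums of Cd8a and Cd8b1 overlapped (42.5 to 313 and 149 to 263 CPM). The part of these cells in the receptor values was not tested.

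Normal CD4+ libraries had less of these transcripts than whole spleen, by unequal amounts. They were not free of other cells. B cell markers summed to 2445 to 2588 CPM in CD4+ libraries and 7997 to 8368 CPM in spleens of the CD4-CreERT2 set. In the CD4-Cre set they summed to 695 to 1081 and 6020 to 6967 CPM. Plasma cell markers summed to 6502 to 6583 and 2667 to 5716 CPM in the CD4-CreERT2 set. The part of other cells in the receptor values of CD4+ libraries was not tested. In the CD4-CreERT2 set Ncr1 was at 2.82 and 1.49 CPM in CD4+ cells, against 30.99, 25.1 and 16.3 CPM in spleen. Klrk1 was at 33.2 and 35.9 CPM in CD4+ cells and 96.1, 86.9 and 62.7 CPM in spleen. Neither gene overlapped between the tissues. All 7 were called lower in CD4+ cells by edgeR, where 11.3% of all genes were lower and 10.3% higher (21.6% in either direction), from -1.12 ± 0.31 (adjusted p = 0.0322) for Klrb1c to -3.47 ± 0.37 (adjusted p = 0.000355) for Ncr1 on the log2 scale. Klre1 stood at -2.12 ± 0.26 and Klrc1 at -1.99 ± 0.23 (log2). All 7 ranges lay below spleen, against 26.8% of all genes, and all 7 had an unadjusted p under 0.05, against 35.3%. The call of Klrb1c was lost without any single one of 4 of the 5 libraries: CD4+ A1 (adjusted p = 0.0948), CD4+ A3 (0.116), spleen A1 (-0.77, 0.0667) or spleen A2 (0.0773).

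In the CD4-Cre set Ncr1 was at 3.43, 1.37 and 7.25 CPM in normal CD4+ cells and 59.0, 30.7 and 36.6 CPM in normal spleens. Klrb1c was at 32.1, 25.1 and 29.1 CPM in CD4+ cells and 44.8, 26.0 and 26.1 CPM in spleens. The tissues were apart in Ncr1 and overlapped in Klrb1c. edgeR called 3 of the 7 lower, where 12.8% of all genes were lower and 25.7% called in either direction: Ncr1 (-3.41 ± 0.57, adjusted p = 0.0054), Klre1 (-2.18 ± 0.34, adjusted p = 0.00423) and Klrd1 (-0.81 ± 0.23, adjusted p = 0.0353). The call of Klrd1 was lost without any of 5 libraries: CD4+ VM211 (adjusted p = 0.0616), VM216 (0.102) or VM645 (0.0957), or spleen VM211 (0.0837) or VM216 (0.0866). At an unadjusted p under 0.05 there were 6, against 39.5% of all genes, and 4 ranges lay below spleen without overlap, against 21.7%. By their numbers, CD4+ cells and spleen were taken to come from the same animals. With the mouse as a block edgeR called 6 of 7 lower (17.2% of all genes), and Klrb1c was not called (-0.13 ± 0.15, adjusted p = 0.56). With tumor groups in the same fit 0 were called in either set, where 0.323% of all genes were called lower in the CD4-Cre set and 0.0% in the CD4-CreERT2 set.

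**Figure D5:**
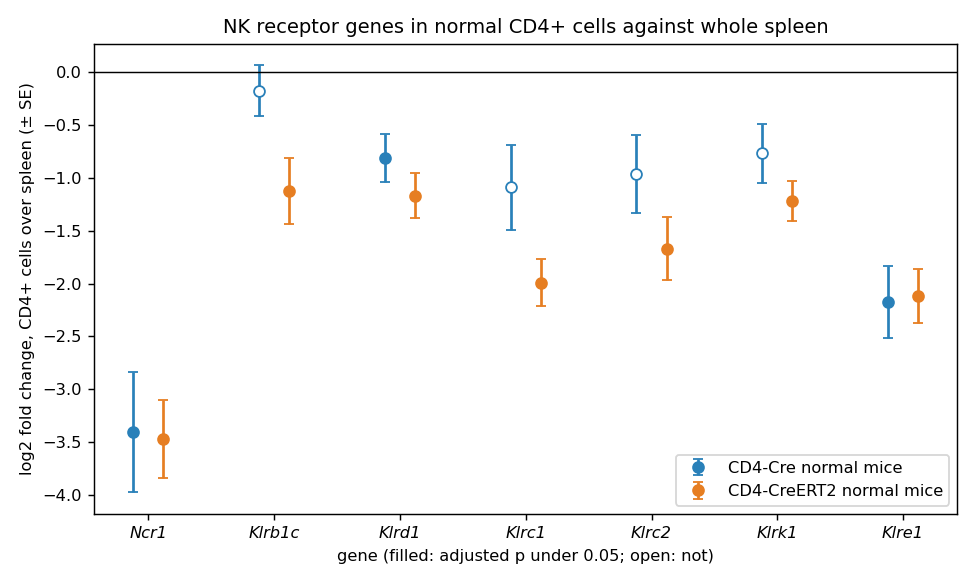
log2 fold change of CD4+ cells over whole spleen (y axis, ± SE) for each gene (x axis) in normal mice of the CD4-Cre set (blue, n = 3 and 3) and the CD4-CreERT2 set (orange, n = 2 and 3), filled where the adjusted p was under 0.05. Ncr1 lies lowest in both sets, near -3.4, and Klrb1c highest in both.

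Other NK genes were set beside the receptors in these tissues. Of the Ly49 receptors, which in C57BL/6 mice mark subsets of NK cells, 7 of 9 tested were lower in normal CD4+ cells than in spleen of the CD4-Cre set and 6 of 8 in the CD4-CreERT2 set. Klra8 (Ly49H) stood at -6.20 ± 1.07 and -3.71 ± 0.42 in these sets. Cd8a stood at -2.53 ± 0.25 and -2.71 ± 0.26 (log2). The adaptors Cd247 (2.35 ± 0.17 and 2.14 ± 0.14) and, in the CD4-CreERT2 set, Hcst (DAP10, 1.29 ± 0.15), which couples Klrk1 to signalling, were higher in CD4+ cells. Klri1, a partner of Klre1, was higher in CD4+ cells of the CD4-Cre set (1.64 ± 0.22). Others of this list were lower in CD4+ cells, among them the adaptor Tyrobp (DAP12) at -1.68 ± 0.21 in the CD4-Cre set and Klri2, another partner of Klre1, at -1.70 ± 0.24 in the CD4-CreERT2 set. Of the 7 partners and adaptors, 2 were higher and 3 lower in the CD4-Cre set (median -0.88), and 2 were higher and 2 lower in the CD4-CreERT2 set (median -0.44).

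Between CD4+ tumors and tumor spleens edgeR called 0 of the 7 genes without the mouse as a block. In the CD4-Cre set 0 of 7 were called between CD4+ tumors and tumor spleens (0.0% of all genes), 0 passed at an unadjusted p under 0.05 (14.2% of all genes), and DESeq2 called 0. In the CD4-CreERT2 set edgeR called 0 (0.0% of all genes) and Ncr1 alone had an unadjusted p under 0.05 (-3.68 ± 1.09, unadjusted p = 0.0103), against 3.85% of all genes. Ncr1 and Klre1 lay below spleen without overlap, against 6.65% of all genes. DESeq2 called Ncr1 lower there (-3.72 ± 0.97, adjusted p = 0.0357), and with the mouse as a block edgeR called it too (-4.17 ± 0.82, adjusted p = 0.00218). The tumor effect did not differ detectably between CD4+ cells and spleen. The interaction was called for 0 of 7 in either set by edgeR (0.0% of all genes) and by DESeq2. At an unadjusted p under 0.05 there were 0 in either set, against 7.32% of all genes in the CD4-Cre set and 2.59% in the CD4-CreERT2 set. The differences ran from -0.999 ± 1.59 for Klrc1 to 1.64 ± 1.72 for Ncr1 in the CD4-Cre set. For Klrd1 the 95% intervals of the difference were -2.64 to 2.06 in that set and -1.13 to 3.55 in the CD4-CreERT2 set.

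Ligands of these receptors were followed in the same libraries. H2-T23, which encodes the ligand Qa-1 of the Klrd1 pairs, was at 902, 1253, 3434 and 857 CPM in the CD4+ tumors VM388, VM58, VM645 and VM98 and 698 to 983 CPM in normal CD4+ cells. The tumor with the least receptor transcripts thus had the most H2-T23. The difference between the groups was 0.90 ± 0.51 (log2, adjusted p = 0.459 with edgeR), and no ligand of 7 tested was called there. In fusion/fusion against control 1 of 6 ligands tested rose and 1 fell, with Cd48, a ligand of the NK receptor CD244, at 0.43 ± 0.07.

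Across the 31 libraries the 7 genes varied together to unequal degrees. With each set centred on its mean, Pearson's r of log2 CPM was 0.933 between Klrk1 and Klrc1 and 0.923 between Klrd1 and Klrk1, and lowest, at 0.554, between Klrb1c and Klre1. These libraries share mice, tissues and tumors, so the values describe the set and carry no test. Of 13213 genes, those most like the mean of the 7 included Samd3 (r = 0.925), Gpcpd1 (0.917), Il5ra (0.912), Hdac9 (0.909), Fcrl5 (0.907), Hepacam2 (0.899), Tsga10 (0.896), the Ly49 gene Klra3 (0.895) and S1pr5 (0.883). Those most like Ncr1 alone were Nxpe2 (0.903), Cd8a (0.857), Prkd3 (0.838), 2010309G21Rik (0.837) and Ppp3ca (0.833).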

How the data were processed

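Per the labels, polyA RNA of CD4+ T cells or whole spleen was amplified and sequenced. The authors deposited raw counts of reads per gene, 1 table per library. The submitters' processing notes name HISAT2 2.1.0, HTSeq 0.5.4 and mm10. The tables differ in kind. For CD4-CreERT2 libraries they list 49315 Ensembl IDs and gave no share of reads in no gene. For all other libraries they list 55276 genes and gave that share. Whether HTSeq made both kinds of table was not established. Strand and annotation release are not given in the sources used here. The 7 genes and all lists were chosen with earlier results of these data known. Counts were tested with edgeR 4.0.16 (filterByExpr with a minimum count of 10, TMM, quasi-likelihood F test, two-sided, Benjamini-Hochberg over all genes) in 13 comparisons. SE is the log2 fold change over the square root of F. Named beside the members are, per list, the called genes of the 3 largest changes or, with none called, the 2 most abundant, with mean log2 CPM of at least 0. Single markers (Eomes, Tbx21, Il2rb, Trdc and others) were chosen after their values were seen. CD4+ and spleen libraries with the same mouse number and genotype were taken to come from the same animal. Their deviations from group means correlated at 0.158 to 0.44 over 10 mice. The scripts were tested on simulated data, with the spread between libraries capped. That test does not cover groups that vary as widely as these tumors, or genes of low level. Alternatives were DESeq2 1.42.0, RLE scaling, TMM without the genes that differ most in lymphoid tissue (immunoglobulin, haemoglobin, mitochondrial, T cell receptor), other filters, other groups in the fit, the mouse as a block, and leaving out each library. No library was identical to another. Among the genes most like the receptors, 1 that the rule names is not reported here.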

Additional observations from a re-analysis of the deposited data

Results flagged for a closer look

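Klrc2 in the CD4+ cells of CD4-Cre tumor VM98 stood at 19.3 CPM, far above the other tumors of its group of 4 (0.77, 0.78 and 0.21 CPM). The gap to the next library, over the range of the group, passed Dixon's critical value. Of 7 such tests 1 was flagged, and chance flags about 1 in 20. This was the only group of 4 libraries, so the tests covered the 7 genes in the same libraries. As these genes vary together, the tests are not independent. The level also lies above the normal CD4+ cells, at 6.93 to 11.4 CPM. This library of VM98 is the one with counts in the most genes (34546).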

How the results depend on the processing

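Of 1245 values of the 91 member results under alternatives, 1104 kept direction and side of the threshold, 24 lost a call, 40 gained one and 77 turned direction, 0 of them where edgeR had called a gene. Leaving out 1 library at a time gave these ranges of members called: 1 to 3 higher in fusion/fusion against control, 0 to 1 lower in fusion/fusion against control, 0 to 2 higher in control/fusion against control, 0 to 1 lower in control/fusion against control, 0 to 2 lower in CD4-Cre CD4+ tumors against normal, 0 to 7 lower in CD4-Cre tumor spleens against normal, 0 to 3 lower in CD4-CreERT2 CD4+ tumors against normal, 0 to 1 lower in CD4-CreERT2 tumor spleens against normal, 2 to 5 lower in CD4+ against spleen in CD4-Cre normal mice. The log2 fold changes that turned ran as follows when 1 library was left out. In fusion/fusion against control, Klrc2 -0.065 to 0.64, Klre1 -0.24 to 0.65, Klrk1 -0.22 to 0.32. In control/fusion against control, Klrc2 -0.38 to 0.33. In fusion/fusion against control/fusion, Klrb1c -0.073 to 0.35, Klrc1 -0.071 to 0.34. In CD4-Cre CD4+ tumors against normal, Ncr1 -0.91 to 0.75. In CD4-CreERT2 CD4+ tumors against normal, Klrc2 -3.75 to 0.86, Ncr1 -2.39 to 0.34, Klre1 -1.06 to 0.42, Klrb1c -3.29 to 0.47, Klrd1 -2.60 to 0.51, Klrk1 -0.73 to 0.58, Klrc1 -0.57 to 1.49. In CD4-CreERT2 tumor spleens against normal, Klrb1c -0.90 to 0.25, Klrc1 -0.31 to 0.32, Klre1 -0.68 to 0.032. In CD4+ against spleen in CD4-Cre normal mice, Klrb1c -0.32 to 0.15. In CD4+ against spleen in CD4-Cre tumors, Klrb1c -0.31 to 1.498, Klrc2 -2.78 to 2.21. In CD4+ against spleen in CD4-CreERT2 tumors, Klrc2 -4.30 to 0.31, Klrd1 -2.23 to 0.92. In the CD4-Cre interaction, Klrk1 -1.94 to 0.63, Klrb1c -0.16 to 1.65, Klrd1 -1.80 to 0.46, Klrc2 -1.81 to 3.13, Klre1 -0.55 to 1.98, Klrc1 -2.37 to 0.58. In the CD4-CreERT2 interaction, Klre1 -0.72 to 0.81, Ncr1 -2.12 to 0.64, Klrb1c -3.15 to 0.65, Klrd1 -1.05 to 2.17, Klrk1 -0.30 to 1.05, Klrc2 -2.59 to 2.06, Klrc1 -0.48 to 1.62. With no filter on low counts 2 genes rose in control/fusion against control and 2 in fusion/fusion against control/fusion, 3 were lower in CD4-Cre tumor spleens and 6 in CD4-Cre normal CD4+ cells against spleen, and Ncr1 was at -0.035 in CD4-Cre CD4+ tumors. DESeq2 gave 2, 1, 3 and 6 there, and 1 in CD4-CreERT2 tumors between tissues. Klrc1 was at 0.007 in CD4-CreERT2 tumor spleens with DESeq2 or RLE scaling. With all 4 groups in the fit 0 were called between normal tissues in either set. The replicate block (mouse) gave 6 lower genes in CD4-Cre normal mice and 1 in CD4-CreERT2 tumors, and turned Klrb1c (-0.13) and Klrc2 (-0.02) in CD4-Cre and Klrd1 (-0.78) in CD4-CreERT2 tumors. It changed no other call. Without the libraries numbered VM645 the CD4-Cre interaction was 0.15 for Klrd1 and 0.41 for Klrk1. The cause of these shifts was not tested. Over all genes, the calls (higher and lower) were 651 and 612 by DESeq2 against 3 and 25 by edgeR in CD4-Cre CD4+ tumors, 425 and 312 against 0 and 0 in CD4-Cre tumor spleens, 229 and 43 against 0 and 0 in CD4-CreERT2 CD4+ tumors, and 1330 and 487 against 0 and 0 in CD4-CreERT2 tumor spleens. Between tumor tissues DESeq2 gave 692 and 546 in the CD4-Cre set and 6 and 65 in the CD4-CreERT2 set, and in the CD4-Cre interaction 27 and 24, each against 0 and 0. With no filter on low counts edgeR called 261 and 397, 89 and 94, 42 and 13, and 391 and 25 genes in the 4 tumor comparisons in the same order, and 375 and 643 between tissues of CD4-Cre tumors. With all 4 groups in the fit it called 227 and 63 genes between CD4-Cre normal tissues, against 2244 and 2235. Groups of 2 to 4 libraries limit every comparison, and between tumors the spread of the receptors is wide. Klrc2, Klre1 and Ncr1 rest on few counts in CD4+ cells.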

Other observations

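Klre1 and its known partners did not go together in CD4+ tumor VM98. Klre1 was at 11.5 CPM there, above the 4.58 to 6.70 CPM of normal CD4+ cells of the CD4-Cre set, while Klri1 was at 0.04 CPM and Klri2 at 0.80 CPM, against 9.07 to 9.64 CPM and 9.81 to 13.0 CPM in normal cells. The same library held the most Klrc2 of its group. It is 1 library, so no test was made. It is also the library with counts in the most genes (34546), with 23.67% of its singly aligned reads in no gene.

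The ratio of the NK1.1 gene to the CD94 gene was followed in the pre-lymphoma groups. There were 124, 113 and 116 Klrb1c counts per 100 Klrd1 counts in fusion/fusion, 104, 51.7 and 100.2 in control/fusion and 44.9 and 42.9 in control libraries. No library of one group reached the range of another. This ratio was looked at after the values of both genes were seen and is given as a description.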
